A study of Rattus norvegicus with 48 samples.

Results

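Liver miRNAs of male Sprague-Dawley rats given thioacetamide (TAA) at the low dose of 4.5 mg/kg once daily for 28 days (28-d) were compared with those of vehicle-treated rats killed at the same time. The comparison uses 6 of the 48 libraries of the series, namely low dose rats 28, 29 and 30 and control rats 16, 17 and 18, numbered as the sample labels number them. The other libraries come from middle dose (15 mg/kg) and high dose (45 mg/kg) rats and from 3-, 7- and 14-day treatments with their own controls. In each condition 3 of the treated rats were profiled, each from a separate liver sample. Of 664 mature miRNAs with a read in the series, the 301 with at least 5 RPM (reads of a miRNA scaled to a common library total) in at least 3 libraries were tested. The labels do not give the age of the rats. The question asked was which miRNAs change after the longest exposure to the smallest dose.

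TAA is an organosulfur compound that liver enzymes convert into reactive products that damage hepatocytes, and it is used to produce liver injury, fibrosis and tumours in rats. A miRNA is a short RNA that guides a silencing complex to messenger RNAs, mainly through its seed, the bases near its 5′ end. Each hairpin precursor can give a miRNA from its 5′ arm (5p) and one from its 3′ arm (3p), of which one is often the more abundant. Transcription of miR-34a is induced by p53 after DNA damage, and miR-122 is the miRNA typical of hepatocytes.

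The 6 libraries held between 7665439 and 14373693 counted reads. In the shallowest library 3 reads were 0.391 RPM (counting error only), and values near that level rest on few reads. The hepatocyte miRNAs miR-192-5p and miR-122-5p ranked among the 10 most abundant in liver RNA, as the tissue label implies. Rat 29 stood apart from the other rats. Its Pearson correlations of log2 (normalized RPM + 1) with the other 5 libraries were between 0.973 and 0.983, against 0.983 to 0.994 for the 10 pairs without it. The first principal component, with 43.3% of the variance, placed rat 29 at 9.999 and the other 5 between -4.37 and -0.68. The second, with 29.6%, placed rats 28 and 30 at 4.75 and 5.58, rat 29 at -1.09 and the controls between -4.85 and -1.70. Results are therefore also given without rat 29 where leaving it out changes them. The upper quartile factor, which scales each library by the upper quartile of the counts of its tested miRNAs, was 1.16 in rat 28, 0.921 in rat 29 and 1.15 in rat 30. In the controls it was 0.892 to 0.992.

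The mature sequences of 270 of the 301 tested miRNAs, and of 36 of the 37 differentially expressed miRNAs (DEMs) described below, were matched by name to RefSeq (build GRCr8); miR-423-3p had no entry. The seed, bases 2 to 8 from the 5′ end, is in capitals. The first set shows miR-34a-5p, which had the largest change, with the tested miRNAs that share its seed. The second shows the 2 pairs of DEMs that share a seed, and the third shows lower DEMs beside a miRNA of the same seed (miR-26b-5p) or the other arm of the hairpin (miR-10a, miR-122). The last 2 are miR-434-3p and its genomic neighbour miR-127-3p, whose seeds differ.
miR-34a-5p: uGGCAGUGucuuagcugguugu
miR-34c-5p: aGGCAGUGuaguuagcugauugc
miR-449a-5p: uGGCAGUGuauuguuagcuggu
miR-103-3p: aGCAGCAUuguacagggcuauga
miR-107-3p: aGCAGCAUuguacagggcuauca
miR-23a-3p: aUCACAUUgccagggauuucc
miR-23b-3p: aUCACAUUgccagggauuacc
miR-26a-5p: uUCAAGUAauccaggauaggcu
miR-26b-5p: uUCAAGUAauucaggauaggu
miR-10a-5p: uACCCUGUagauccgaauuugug
miR-10a-3p: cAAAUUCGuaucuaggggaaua
miR-122-5p: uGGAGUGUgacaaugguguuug
miR-122-3p: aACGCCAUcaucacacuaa
miR-434-3p: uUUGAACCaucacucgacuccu
miR-127-3p: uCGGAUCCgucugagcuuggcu

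With low dose TAA for 28 days, 37 of the 301 miRNAs (12.3%) were DEMs, that is, they had an unadjusted p below 0.05 in edgeR's quasi-likelihood F-test and a fold change above 1.5. Of these, 11 were higher (3.65% of those tested) and 26 were lower (8.64%). Only miR-34a-5p passed a Benjamini-Hochberg adjusted p of 0.05, and the adjusted p values of the other 36 lay between 0.0644 and 0.336. The higher DEMs were 1.58- to 14.6-fold above the controls, with miR-34a-5p far ahead of the second, miR-582-3p, at 2.37-fold. The lower DEMs were 1.51- to 5.49-fold below them. The 3 treated and 3 control values did not overlap for 32 of the 37 DEMs, against 70 of all 301 miRNAs (23.3%). In RNA of whole liver, fewer cells of a type and less of a miRNA per cell cannot be told apart.

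The split into higher and lower depended on the scaling of the libraries. With TMM normalization 16 were higher and 12 lower, with DESeq2's size factors 17 and 12, and with library size alone 22 and 7. The median log2 fold change of all 301 was -0.06, and these scalings moved it by 0.11, 0.12 and 0.20. All 11 higher DEMs were called under each of the 3. Of the 26 lower DEMs, 12 were called with TMM and with DESeq2's size factors and 7 with library size alone. The 14 lost with TMM and DESeq2's size factors were let-7b-3p, let-7e-3p, miR-101a-5p, miR-10a-3p, miR-10a-5p, miR-23a-3p, miR-26a-5p, miR-26b-3p, miR-3585-5p, miR-365-3p, miR-374-5p, miR-423-3p, miR-455-3p and miR-874-3p. All 37 kept their sign under every alternative run. With all 12 controls of the series pooled, the higher miR-93-5p, miR-107-3p, miR-103-3p, miR-31a-5p, miR-152-3p and miR-219a-1-3p were not called. The pool includes a 3-d control library of only 293331 reads. In it miR-219a-1-3p was at 40.9 RPM, against 3.13 to 7.95 in the other controls. The pooled fit was not run without that library. Lower DEMs were lost as well, among them miR-26a-5p, miR-10a-5p, miR-122-3p and miR-141-3p. For example, miR-31a-5p was at 1099.5, 919.4 and 562.0 RPM in the 28-d controls. It was at 1675.7, 1776.1 and 1649.7 in those of 14-d and at 1750.2, 1768.0 and 1756.4 in the low dose rats of 28-d.

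**Figure D1:**
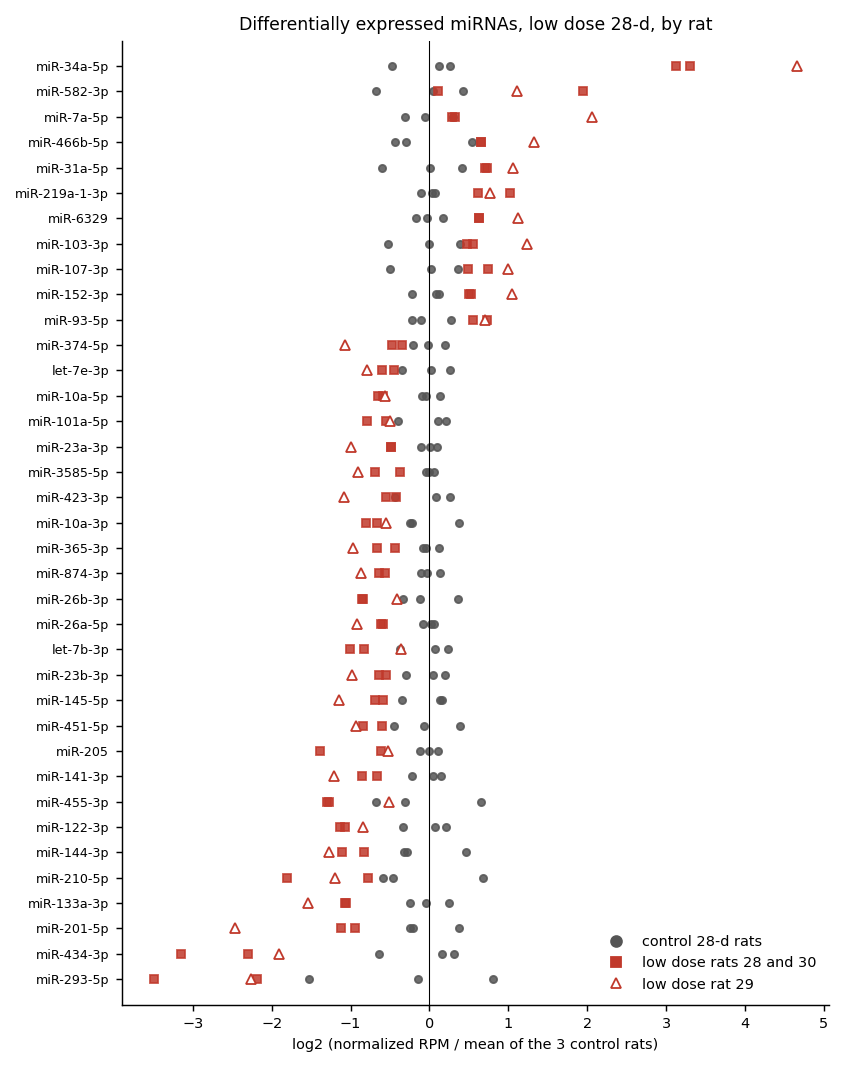
Each row is 1 of the 37 DEMs, and each point is 1 rat, on a log2 scale relative to the mean of the 3 control rats (normalized RPM). Low dose rat 29 (open triangles) lies farthest from the controls for miR-34a-5p and miR-7a-5p, and rats 28 and 30 lie farther out than rat 29 for miR-455-3p and miR-434-3p.

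miR-34a-5p, which represses cell cycle and survival genes, gave the clearest difference. It was at 23.6, 14.2 and 21.5 normalized RPM in control rats 16, 17 and 18. In low dose rats 28, 29 and 30 it was at 173, 501 and 195. Every treated rat was thus far above every control, and rat 29 was the highest. The log2 fold change was 3.87 (SE 0.48, n = 3 rats per group, edgeR adjusted p = 0.0137), and without rat 29 it was 3.22 (SE 0.24, edgeR adjusted p = 0.000236). With control rat 16, 17 or 18 left out the value stayed between 3.68 and 4.02, but the adjusted p no longer passed 0.05. The other arm, miR-34a-3p, was too rare to be tested, with 0, 4 and 4 reads in the controls and 8, 10 and 10 in the low dose rats.

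The tested miRNAs with the seed of miR-34a-5p showed much smaller differences. The log2 fold change of miR-34c-5p was 0.39 (SE 0.38, edgeR adjusted p = 0.652), and that of miR-449a-5p was 0.71 (SE 0.35, edgeR adjusted p = 0.400). Both share bases 2 to 8 with miR-34a-5p and come from other precursors. Of the 9 listed members of the miR-34 and miR-449 family, 8 were in the file and 3 were tested, and miR-34a-5p was the only DEM. The median over the 3 was 0.71.

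miR-103-3p and miR-107-3p, which share a seed and are known as regulators of insulin sensitivity in liver, were both higher. miR-107-3p was at 300.3, 239 and 165 normalized RPM in the controls and at 330.1, 469 and 393 in low dose rats 28, 29 and 30. miR-103-3p was at 663, 507 and 352 in the controls and at 707, 1190 and 740.3 in the low dose rats. The groups did not overlap for either, although the highest control and the lowest treated rat lay close together. The log2 fold changes were 0.76 for miR-107-3p (SE 0.28, edgeR adjusted p = 0.249) and 0.79 for miR-103-3p (SE 0.32, edgeR adjusted p = 0.285). Without rat 29 miR-103-3p fell to 0.51 and was not called. The sequences differ by 1 base (G22C, counted from the 5′ end of miR-103-3p), so a read with an error there could be counted for either.

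miR-93-5p, of the miR-17 family that favours cell cycle entry, was at 297, 228 and 210.2 normalized RPM in the controls and at 359, 398 and 407 in the low dose rats (log2 fold change 0.66, SE 0.22, edgeR adjusted p = 0.249). The groups did not overlap. The 3 relatives with the same seed were not called, with log2 fold changes of 0.38 for miR-17-5p, 0.33 for miR-20a-5p and 0.13 for miR-106b-5p, the last from the same transcript as miR-93-5p.

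miR-152-3p, which targets a DNA methyltransferase, was at 151, 122 and 155 normalized RPM in the controls and at 202, 295 and 206 in the low dose rats (log2 fold change 0.71, SE 0.24, edgeR adjusted p = 0.249). All treated rats were above all controls, but without rat 29 the value was 0.51 and the call was lost. The far more abundant miR-148a-3p, with the same seed, differed by 0.12 and miR-148b-3p by 0.08. miR-31a-5p, common in epithelia, was at 1233, 927 and 610 in the controls and at 1508, 1920 and 1531 in the low dose rats, without overlap. Its log2 fold change was 0.84 (SE 0.29, edgeR adjusted p = 0.249), and its other arm, miR-31a-3p, was at 0.38 and not called.

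miR-6329, for which no role is given here, was called under every alternative and without each rat. It was at 41.8, 36.2 and 32.98 normalized RPM in the controls and at 57.1, 80.6 and 57.0 in the low dose rats (log2 fold change 0.81, SE 0.22, edgeR adjusted p = 0.151). The rarer miR-219a-1-3p was at 3.51, 3.84 and 3.96 in the controls and at 7.64, 6.41 and 5.76 in the low dose rats, also a log2 fold change of 0.81 (SE 0.23). miR-466b-5p was at 4.91, 4.47 and 8.78 in the controls and at 9.49, 15.2 and 9.51 in the low dose rats (0.93, SE 0.34), and without rat 29 it was not called. These groups did not overlap, but the highest control of miR-466b-5p was near the lowest treated rat.

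For the last 2 higher DEMs the groups overlapped. miR-582-3p ranged from 20.5 to 44.3 normalized RPM in the controls and from 35.4 to 127 in the low dose rats (log2 fold change 1.24, SE 0.47). miR-7a-5p ranged from 19.7 to 30.1 in the controls and from 29.6 to 102 in the low dose rats (1.14, SE 0.49). The 102 was rat 29, and without it miR-7a-5p was at 0.30 (SE 0.22) and was not called.

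Among the 10 most abundant miRNAs, 2 were lower DEMs. miR-26a-5p, a tumour suppressor in liver of rank 3 by mean RPM, was at 86756, 93250 and 95503 normalized RPM in the controls and at 60997, 48710 and 59716 in the low dose rats. Each treated rat was well below each control, by a log2 fold change of -0.70 (SE 0.13, edgeR adjusted p = 0.0657), and without rat 29 by -0.61 (SE 0.10, edgeR adjusted p = 0.0120). With TMM the value was -0.58, just inside the 1.5-fold limit, with an unadjusted edgeR p of 0.00113. miR-26b-5p, with the same seed, was not called (log2 fold change -0.09, SE 0.21, edgeR adjusted p = 0.833). The passenger arm miR-26b-3p was a lower DEM, at 31.1 to 50.1 in the controls and 21.6 to 29.3 in the low dose rats (-0.69, SE 0.25).

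miR-10a-5p, which lies in the HoxB cluster, was at 55382, 53591 and 62401 normalized RPM in the controls and at 38022, 38563 and 36214 in the low dose rats. The treated rats were tightly grouped below the controls (log2 fold change -0.60, SE 0.12, edgeR adjusted p = 0.0798). The other arm, miR-10a-3p, was also lower, at 20.8, 20.6 and 31.6 in the controls and at 15.4, 16.6 and 13.9 in the low dose rats (-0.67, SE 0.24, edgeR adjusted p = 0.249). It was the only hairpin with both arms called. With TMM the values were -0.48 and -0.54, and neither was called.

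The arms of the miR-122 hairpin differed. miR-122-5p, the main hepatocyte miRNA, was at 38725, 27583 and 33392 normalized RPM in the controls and at 26821, 67448 and 26616 in low dose rats 28, 29 and 30. Rat 29 lay above all controls and the other low dose rats just below them, and the log2 fold change was 0.28 (SE 0.36, edgeR adjusted p = 0.729). miR-122-3p, the passenger arm, was at 1871, 2488 and 2738 in the controls and at 1122, 1314 and 1078 in the low dose rats. These groups did not overlap (log2 fold change -1.01, SE 0.22, edgeR adjusted p = 0.0942), also not in rat 29. Per 1000 reads of miR-122-5p there were 48.3, 90.2 and 82.0 reads of miR-122-3p in the controls and 41.8, 19.5 and 40.5 in the low dose rats, a ratio that the scaling of the libraries does not touch.

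**Figure D2:**
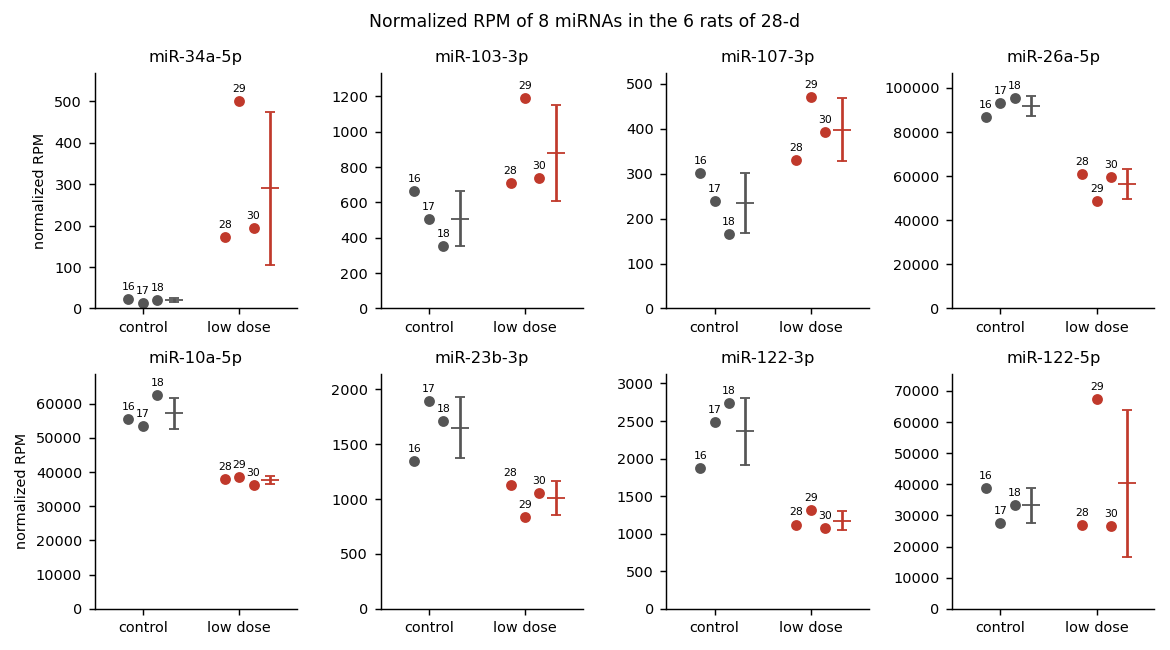
Normalized RPM of 8 miRNAs in the 3 control and 3 low dose rats of 28-d, each point labelled with its rat number, with the mean and SD of each group beside the points (axes start at 0). miR-26a-5p, miR-10a-5p and miR-122-3p are lower in every low dose rat, and miR-122-5p differs from the controls mainly in rat 29, at 67448.

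miR-23a-3p and miR-23b-3p, which share a seed and come from 2 clusters with miR-27 and miR-24, were both lower. miR-23b-3p was at 1349, 1898 and 1709 normalized RPM in the controls and at 1128, 834 and 1058 in the low dose rats (log2 fold change -0.71, SE 0.23, edgeR adjusted p = 0.249). miR-23a-3p was at 456, 523 and 491 in the controls and at 350.1, 247 and 349 in the low dose rats (-0.64, SE 0.22, edgeR adjusted p = 0.249). Neither pair of groups overlapped, and without rat 29 miR-23a-3p was at -0.49 and not called. The sequences differ by 1 base (U19A, counted from the 5′ end of miR-23a-3p). Their cluster partners were not called, with log2 fold changes of -0.58 for miR-27a-3p, -0.29 for miR-27b-3p and 0.30 for miR-24-3p.

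Of 5 listed red blood cell miRNAs 4 were tested and 2 were lower DEMs, against 8.64% of all 301. The other 2, miR-486 (-0.59) and miR-144-5p (-0.58), did not pass. The median log2 fold change of the 4 was -0.69 against -0.06 for all 301, and all 4 values were negative under the 3 other scalings too. All but miR-486 come from the same transcript, so these values and calls are not independent of each other. miR-144-3p was at 90.6, 88.0 and 152 normalized RPM in the controls and at 61.9, 45.6 and 51.0 in the low dose rats (log2 fold change -1.06, SE 0.27, edgeR adjusted p = 0.151). miR-451-5p, from the same transcript, was at 292, 224 and 399.6 in the controls and at 200.3, 160 and 170.0 in the low dose rats (-0.79, SE 0.26, edgeR adjusted p = 0.249). In both, every treated rat was below every control. The most abundant of them, miR-486, was at 3892, 2463 and 4411 in the controls and at 1915, 3650 and 1589 in the low dose rats, and was a DEM only without rat 29 (-1.04, against -0.59 with it). With library size alone miR-451-5p was at -0.57 and not called.

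miR-145-5p, a marker of smooth muscle and stellate cells, was at 258, 359 and 366 normalized RPM in the controls and at 219, 148 and 204 in the low dose rats (log2 fold change -0.78, SE 0.25, edgeR adjusted p = 0.249), without overlap. Its cluster partner miR-143-3p was at 0.17 and not called. miR-133a-3p, a muscle miRNA that is rare in liver, was at 8.97, 12.6 and 10.3 in the controls and at 5.12, 3.65 and 5.07 in the low dose rats (-1.20, SE 0.25, edgeR adjusted p = 0.0798). miR-141-3p, of the epithelial miR-200 family, was at 119, 128 and 98.7 in the controls and at 63.6, 49.6 and 72.8 in the low dose rats (-0.89, SE 0.22, edgeR adjusted p = 0.142). For these also every treated rat was below every control, while the neighbouring miR-200c-3p had a log2 fold change of 0.33 and was not called. miR-365-3p, at 366, 411 and 355 in the controls and at 279, 193 and 238 in the low dose rats (-0.67, SE 0.22), did not overlap either.

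miR-455-3p, which the study names, overlapped between the groups at this dose and time. It was at 60.1, 151 and 77.4 normalized RPM in the controls and at 39.9, 67.1 and 38.9 in the low dose rats (log2 fold change -0.98, SE 0.39, edgeR adjusted p = 0.277). Rats 28 and 30 were below all controls and rat 29 was not. Its other arm, miR-455-5p, was at 0.06 (SE 0.24) and not called.

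The largest negative fold changes were of rare miRNAs. miR-434-3p, from the large imprinted miRNA cluster of the Dlk1-Dio3 region, had 4.99, 2.86 and 5.52 normalized RPM in the controls, against 0.504, 1.18 and 0.903 with low dose TAA, which is 64, 32 and 39 reads against 6, 12 and 13. The groups did not overlap, and the log2 fold change was -2.36 (SE 0.41, edgeR adjusted p = 0.0644), or -2.61 without rat 29 (SE 0.44, edgeR adjusted p = 0.0120). miR-293-5p, of a cluster active in embryonic stem cells, was at 2.57, 0.983 and 4.95 in the controls and at 0.252, 0.592 and 0.625 in the low dose rats (-2.46, SE 0.65, edgeR adjusted p = 0.151), with 3 to 35 reads a rat. miR-201-5p was at 12.7, 18.9 and 12.3 in the controls and at 7.64, 2.66 and 6.73 in the low dose rats (-1.36, SE 0.39), and its genomic neighbour miR-3585-5p was at 14.3, 13.2 and 13.6 against 10.6, 7.30 and 8.47 (-0.64, SE 0.22). In all of these each treated rat was below each control.

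The remaining lower DEMs were closer to the 1.5-fold limit or to the floor. miR-210-5p ranged from 4.52 to 10.9 normalized RPM in the controls and from 1.93 to 3.96 in the low dose rats (log2 fold change -1.17, SE 0.43), and miR-205 from 3.68 to 4.29 and from 1.53 to 2.76 (-0.81, SE 0.30). miR-874-3p ranged from 4.83 to 5.69 and from 2.86 to 3.53 (-0.68), and let-7e-3p from 4.83 to 7.36 and from 3.55 to 4.51 (-0.60). These 4 had non-overlapping groups. miR-101a-5p ranged from 12.3 to 18.7 in the controls and from 9.33 to 11.4 in the low dose rats (-0.61), and miR-374-5p from 49.5 to 66.0 and from 27.2 to 45.2 (-0.59), also without overlap. let-7b-3p ranged from 56.9 to 86.7 and from 36.7 to 57.3 (-0.71), and miR-423-3p from 764 to 1239 and from 489 to 770.1 (-0.66), each with 1 pair of rats overlapping. Of the 37 DEMs, 7 had means below 10 normalized RPM in both groups, 6 of them lower.

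Of 20 DEMs whose other arm was also tested, the arms had the same sign in 10, counting both arms of miR-10a. Besides miR-122, arms with opposite signs included let-7b-3p (-0.71) with let-7b-5p (0.58), miR-93-5p (0.66) with miR-93-3p (-0.26), and miR-7a-5p (1.14) with miR-7a-1-3p (-0.19). In none of these was the other arm called. Seeds were compared only among the 270 tested miRNAs with a matched sequence, so partners without one were not counted. Of 9 DEMs with a same-seed miRNA in that set, the 4 in the pairs miR-103/107 and miR-23a/23b had a partner that was also called.

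The marker lists describe the cell types in which these miRNAs are typically found. Their counts stand beside the 12.3% of all 301 that were DEMs, and 1 of 11, 1 of 7 or 2 of 12 members is near that share. Summed levels here and in the next paragraph are RPM before the upper quartile scaling, while the fold changes are after it. That scaling lowers rats 28 and 30 (factors 1.16 and 1.15) relative to the controls (0.892 to 0.992). After it miR-192-5p, of the hepatocyte list, was at 169912.5 and 183009 in them, 259052 in rat 29 and 197873 to 222404 in the controls. In the hepatocyte list all 11 were tested and 1 was a DEM (miR-122-3p), with a median log2 fold change of 0.06 and a summed level of 302688 to 325198 RPM in the controls and 334888 to 393335 in the low dose rats. Without rat 29 the median was -0.27. Of 7 tested stellate and smooth muscle markers 1 was lower (miR-145-5p), with a median of -0.11 and summed levels of 23828 to 37612 RPM against 33607 to 44060. Of 12 tested epithelial and bile duct markers 1 was higher (miR-31a-5p) and 1 lower (miR-141-3p), with a median of 0.19, and their sums were 2986 to 4146 RPM against 4061 to 5257. None of the 7 leukocyte markers tested was a DEM, the median was -0.38, and sums were 4985 to 6008 RPM against 3741 to 6157; the 2 most abundant, miR-142-5p and miR-146a-5p, were at -0.39 and -0.59.

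Red blood cell markers summed to 2786 to 4642 RPM in the controls and 2116 to 3582 in the low dose rats. Of the 2 endothelial markers tested neither was a DEM. miR-126a-5p, however, was at 21644, 23091 and 25033 normalized RPM in the controls and at 15550, 17568 and 14881 in the low dose rats, a log2 fold change of -0.54 (SE 0.15, edgeR adjusted p = 0.151) that was inside the 1.5-fold limit, while its other arm miR-126a-3p was at -0.08. Endothelial sums were 23876 to 28461 RPM against 19968 to 24861. In the muscle list miR-133a-3p was the only DEM of 2 tested, and sums were 21.4 to 38.3 RPM against 22.5 to 38.2. None of the 3 brain and pancreas markers tested was a DEM (median 0.07, miR-128-3p at -0.46 and miR-138-5p at 0.07). Of 2 miRNAs tested from the kidney list 1 was lower, miR-10a-5p. It was among the 10 most abundant miRNAs of these livers, so it does not mark kidney here. The part of changed cell numbers in the DEMs was not tested.

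Among the other groups, all 5 tested miR-29 family members, which repress collagen genes, had negative log2 fold changes between -0.50 and -0.18 and none was a DEM. With library size alone 4 of the 5 were negative. miR-29a-3p, the most abundant, was at 3537, 4132 and 3892 normalized RPM in the controls and at 3213, 1979 and 3314 in the low dose rats (-0.44, SE 0.24, edgeR adjusted p = 0.412), without overlap, and miR-29c-3p was at -0.40. In the cell cycle clusters (miR-17-92, miR-106b-25, miR-322/503) 1 of 22 tested was a DEM, miR-93-5p, with a median of 0.14 that moved to 0.36 with library size alone. None of 8 oncomirs was a DEM (median -0.05), with miR-21-5p at -0.18 and miR-182 at 0.05.

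None of the 9 let-7 and miR-98 main strands was a DEM, with a median of 0.28 with all rats and -0.09 without rat 29, and let-7f-5p and let-7a-5p were at -0.33 and 0.37. Of their 10 tested passenger strands 2 were lower DEMs (let-7b-3p and let-7e-3p) and 8 were negative, with a median of -0.23. let-7a-1-3p and let-7c-2-3p have the same mature sequence and the same counts in all 6 libraries (845 to 1665 reads). The 10 and the 8 thus count this sequence under both names. In the lipid and glucose list 2 of 14 were higher, miR-103-3p and miR-107-3p, with a median of -0.11. Of 5 miR-7 and miR-190 members 1 was higher (miR-7a-5p, median 0.25), and of 4 miR-193 and miR-365 members 1 was lower (miR-365-3p, median -0.22). None of 3 miR-132 and miR-212 members was a DEM (median 0.42, miR-132-3p at 0.42, miR-212-3p at -0.47), and of the 2 miR-455 arms miR-455-3p was lower.

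The other 8 of the 10 most abundant miRNAs were not DEMs. miR-22-3p came closest, at 225841, 192586 and 197378 normalized RPM in the controls and at 142956, 161471 and 147014 in the low dose rats. These groups did not overlap, and its log2 fold change of -0.45 (SE 0.11, edgeR adjusted p = 0.142) was below 1.5-fold. miR-192-5p (-0.06), miR-148a-3p (0.12), miR-21-5p (-0.18), miR-122-5p (0.28), miR-143-3p (0.17), miR-30a-5p (-0.14) and miR-378a-3p (0.17) overlapped between the groups. The 10 together took 71.8 to 75.8% of the reads in each rat.

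Leaving out rat 29 changed which miRNAs were called. Without it 49 were DEMs, 20 higher and 29 lower, and 14 had an adjusted p below 0.05. Of the 37 DEMs of all 6 rats 27 were still called, and 10 were lost, namely miR-365-3p, miR-152-3p, miR-3585-5p, miR-23a-3p, miR-466b-5p, miR-103-3p, miR-374-5p, miR-423-3p, let-7e-3p and miR-7a-5p. A further 22 were called, 13 higher and 9 lower. For all 22 rat 29 was nearer to the controls than rats 28 and 30 were, or beyond them, and for 14 it lay on the opposite side of all 3 controls. The 22 were picked as called only without rat 29, so its place relative to the controls largely follows from that choice.

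By p value without rat 29, the first 7 of these, named after their values were seen, were miR-100-5p, miR-99b-5p, miR-99a-5p, miR-501-3p, miR-362-5p, miR-193a-3p and miR-125b-5p. miR-99a-5p, miR-99b-5p and miR-100-5p belong to a family with a common seed, and miR-125b-5p is transcribed with members of it. The other 3 are not of that family. Both miR-100-5p and miR-99b-5p are shown with the seed in capitals.
miR-100-5p: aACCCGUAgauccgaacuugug
miR-99b-5p: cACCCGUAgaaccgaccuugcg
miR-100-5p was at 222, 246 and 211 normalized RPM in the controls and at 882, 109 and 837 in low dose rats 28, 29 and 30. miR-99b-5p was at 1475, 1747 and 1359 in the controls and at 3646, 950.2 and 3380 in the low dose rats. miR-125b-5p was at 2111, 1814 and 2321 in the controls and at 3592, 1121 and 3725 in the low dose rats. Rats 28 and 30 were thus above every control and rat 29 below every control. The log2 fold changes without rat 29 were 1.93 for miR-100-5p (SE 0.18, edgeR adjusted p = 0.000624), 1.20 for miR-99b-5p (SE 0.18, edgeR adjusted p = 0.0117), 1.03 for miR-99a-5p (SE 0.16, edgeR adjusted p = 0.0117) and 0.81 for miR-125b-5p (SE 0.17, edgeR adjusted p = 0.0306). With rat 29 they were 1.43, 0.80, 0.66 and 0.43, and none was a DEM. The rarer miR-501-3p was at 7.88, 12.3 and 10.2 in the controls and at 32.9, 7.00 and 25.4 in the low dose rats, and miR-362-5p at 6.01, 5.18 and 4.67 against 17.3, 2.17 and 12.7. Without rat 29 they were at 1.53 and 1.49 (SE 0.24 each, edgeR adjusted p = 0.0117 each), and rat 29 was again below every control. miR-193a-3p showed the reverse, at 421, 523 and 503 in the controls, at 245 and 224 in rats 28 and 30 and at 532 in rat 29.

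**Figure D3:**
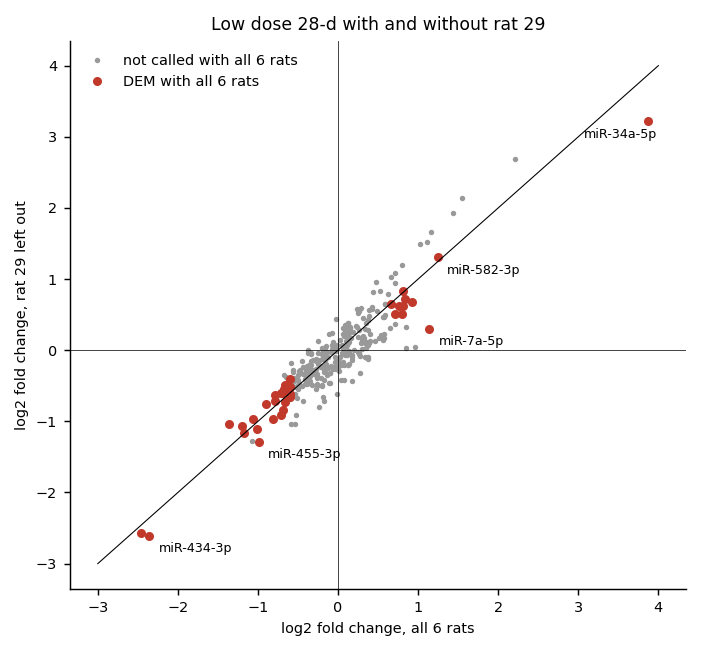
Each point is 1 of the 301 tested miRNAs, with its log2 fold change (low dose over control) from all 6 rats on the x axis and with rat 29 left out on the y axis (the diagonal marks equal values). miR-34a-5p lies at 3.87 and 3.22, and miR-7a-5p moves from 1.14 to 0.30.

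The low dose was also given for 3, 7 and 14 days to other rats with other controls, in which 50 (16.6%), 87 (28.9%) and 98 (32.6%) of the 301 miRNAs were DEMs. Of the 37 DEMs of 28-d, 9 were DEMs in the same direction at 3-d (24.3% of the 37, 18% of the 50), 11 at 7-d (29.7% and 12.6%) and 15 at 14-d (40.5% and 15.3%). A control library of 3-d held only 293331 reads, and without it 11 of the 37 were among 71 DEMs of 3-d. At all 4 times, 6 were called, with higher levels of miR-34a-5p, miR-466b-5p, miR-6329 and miR-7a-5p and lower levels of miR-365-3p and miR-145-5p. miR-34a-5p was at log2 fold changes of 2.79, 3.48, 4.70 and 3.87 in order of duration, and miR-145-5p at -1.21, -1.07, -0.92 and -0.78. The 3-d values include the shallow control library. In it miR-145-5p was at 651 RPM, against 383 and 295 in the other 3-d controls, and without that library miR-145-5p was still called at 3-d. Another 16 were called in their direction at 28-d alone, of which miR-434-3p was higher at 14-d (1.09) and miR-3585-5p higher at 7-d (1.64). Among the 16 were miR-10a-5p, miR-10a-3p, miR-23a-3p, miR-23b-3p, miR-141-3p, miR-93-5p, miR-107-3p and miR-31a-5p. Some of them changed in the same direction at other durations but stayed inside the 1.5-fold limit. At 14-d miR-93-5p was at 0.58 (edgeR adjusted p = 0.0106) and miR-31a-5p at 0.55 (edgeR adjusted p = 0.00581). At 7-d miR-23b-3p was at -0.54 (edgeR adjusted p = 0.00819). Whether the effects of the 16 differed between durations was tested for 14-d only.

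**Figure D4:**
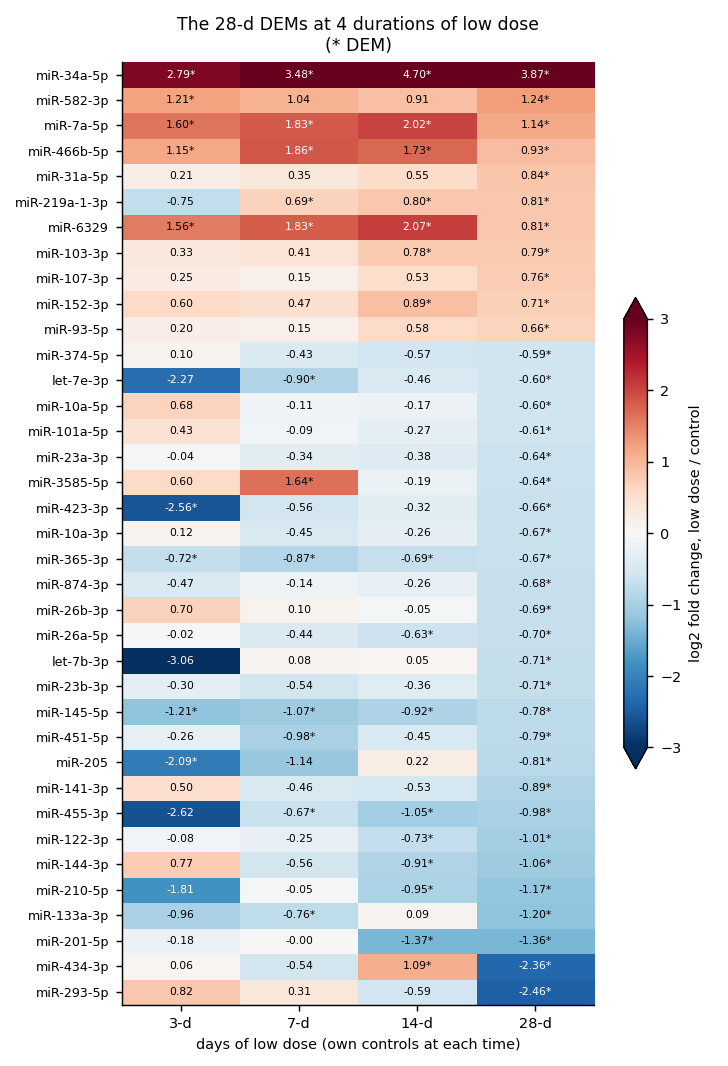
Log2 fold changes of the 37 DEMs of 28-d (rows) after 3, 7, 14 and 28 days of low dose TAA, each against its own controls (3 rats per group), with an asterisk on those called as DEMs. miR-34a-5p is called in all 4 columns, and miR-434-3p is at 1.09 at 14-d and at -2.36 at 28-d. The 3-d column includes the control library of 293331 reads, in which let-7b-3p was at 1507 RPM, against 51.5 and 48.7 in the other 3-d controls.

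Tested directly, the effect of the low dose at 28-d differed from that at 14-d for 2 of the 301 miRNAs (0.664%, edgeR adjusted p below 0.05), and 41 had an unadjusted p below 0.05. Both lie in the Dlk1-Dio3 region. miR-434-3p was at 2.53, 3.98 and 4.60 RPM in the 14-d controls and at 4.89, 6.07 and 10.5 in the low dose rats, and its effect at 28-d was lower by a log2 difference of -3.45 (SE 0.58, edgeR adjusted p = 0.0153). miR-127-3p was at 11.3, 11.7 and 8.96 RPM in the 14-d controls and at 22.2, 22.9 and 29.8 in the low dose rats, whereas at 28-d it was at 13.2, 11.4 and 6.39 in the controls and at 9.17, 8.72 and 9.40 in the low dose rats. Its difference was -1.77 (SE 0.36, edgeR adjusted p = 0.0442), with TMM -1.51 (edgeR adjusted p = 0.199) and with library size alone -1.42 (edgeR adjusted p = 0.233). miR-434-3p was the only DEM of 28-d that passed. With 1 of the 12 rats left out at a time, its difference stayed between -3.70 and -3.03, and the call was lost in 5 of 12 cases (without 28-d low dose rat 28 or 30, control rat 16, or 14-d control rat 13 or 14, edgeR adjusted p = 0.0507 to 0.0701). For miR-127-3p it was lost in 10 of 12, all but 28-d control rat 18 and low dose rat 29. For miR-34a-5p the difference was -0.82 (SE 0.56, edgeR adjusted p = 0.455), and for miR-6329 -1.26 (SE 0.41, edgeR adjusted p = 0.29). Without rat 29, 70 miRNAs passed, 18 with a higher and 52 with a lower effect at 28-d, miR-34a-5p (-1.48, edgeR adjusted p = 0.0252) and miR-7a-5p (-1.71, edgeR adjusted p = 0.00282) among them.

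The middle and high dose groups of 28-d share their controls with the low dose group, and against those controls 99 (32.9%) and 46 (15.3%) miRNAs were DEMs. For miR-34a-5p the log2 fold changes were 3.87 at low, 4.88 at middle and 2.79 at high dose, for miR-26a-5p -0.70, -0.90 and -0.30, for miR-10a-5p -0.60, -0.22 and -0.10, for miR-122-3p -1.01, -1.27 and -0.34, and for miR-455-3p -0.98, -0.71 and 0.20. For miR-100-5p they were 1.43, 2.23 and 0.06, and for miR-99b-5p 0.80, 1.82 and 0.02.

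Compared directly with the low dose rats, 13 miRNAs differed in the middle dose rats (4.32%, edgeR adjusted p below 0.05), 12 of them higher and 1 lower than at low dose, and 92 had an unadjusted p below 0.05. In the high dose rats 15 differed (4.98%), all higher than at low dose, and 71 had an unadjusted p below 0.05. The median log2 difference of all miRNAs was 0.12 for middle and 0.11 for high dose. Of the 6 tested miRNAs of the Dlk1-Dio3 region, 5 differed at middle dose and 6 at high dose, with median log2 differences of 2.17 and 2.69. Of 85 miRNAs listed for this region 76 were in the file and the other 70 of these were too rare to be tested. The 6 passed a filter over all 48 libraries, not over those of 28-d alone. In the low dose rats of 3-d, miR-136-5p was at 5.98 to 7.33 RPM and miR-541-5p at 5.98 to 9.89. In the control and low dose rats of 28-d they reached at most 0.522 and 1.39 RPM. miR-136-3p and miR-411-5p reached at most 1.36 and 3.00 RPM there, and miR-434-3p was above 5 RPM only in control rat 18 (5.09). At high dose miR-136-3p, miR-411-5p and miR-434-3p averaged 5.91, 12.8 and 14.3 normalized RPM. All of these were also above 5 RPM in every low dose rat of 3-d. All 6 belong to the same cluster, and miR-136-5p and miR-136-3p are arms of the same hairpin. The 5 and 6 calls are therefore not independent of each other.

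Each of the 6 tested miRNAs of the region had its lowest mean in the low dose rats. Against the 28-d controls only miR-434-3p was a DEM. The log2 fold change from those controls was -1.08 for miR-541-5p (SE 0.49, edgeR adjusted p = 0.356) and -0.39 for miR-127-3p (SE 0.29, edgeR adjusted p = 0.531). For miR-136-3p it was -0.24 (SE 0.53, edgeR adjusted p = 0.833), and miR-411-5p averaged 2.11 normalized RPM at low dose against 2.40 in the controls. With the 12 libraries of 28-d scaled together, miR-434-3p averaged 4.58 ± 1.45 normalized RPM in the controls (mean ± SD, n = 3), 0.887 ± 0.351 at low, 3.93 ± 1.599 at middle and 14.3 ± 2.37 at high dose. Its high minus low log2 difference was 4.01 (SE 0.39, edgeR adjusted p = 6.13e-05) and its middle minus low difference 2.14 (SE 0.39, edgeR adjusted p = 0.00998). miR-127-3p was at 11.4 ± 4.07, 8.76 ± 0.861, 45.1 ± 17.6 and 32.6 ± 11.2 in the same order, and every middle and high dose rat was above every low dose rat. Its differences from low dose were 2.36 at middle (SE 0.36, edgeR adjusted p = 0.00663) and 1.89 at high dose (SE 0.35, edgeR adjusted p = 0.00792). miR-541-5p had a middle minus low difference of 2.82 and a high minus low difference of 2.38, miR-411-5p of 2.19 and 2.62, and miR-136-3p of 1.64 and 2.76. miR-136-5p, with 3 to 4 reads in each control and low dose rat, differed by 3.48 at high dose (SE 0.41, edgeR adjusted p = 0.000247) and by 1.19 at middle dose, which did not pass. Without rat 29 the same numbers of these 6 passed, 5 and 6. With TMM miR-541-5p did not pass at high dose (2.19, edgeR adjusted p = 0.0578). At middle dose 4 of the 5 calls were lost without low dose rat 28, namely miR-434-3p (1.88, edgeR adjusted p = 0.0536), miR-541-5p (2.46, edgeR adjusted p = 0.0543), miR-411-5p (2.04, edgeR adjusted p = 0.062) and miR-136-3p (1.38, edgeR adjusted p = 0.0782). Without low dose rat 30, or without middle dose rat 38 or 39, miR-411-5p and miR-136-3p did not pass. At high dose miR-541-5p was lost without low dose rat 28 or 30 or high dose rat 20 or 21, and the other 5 passed without each rat.

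**Figure D5:**
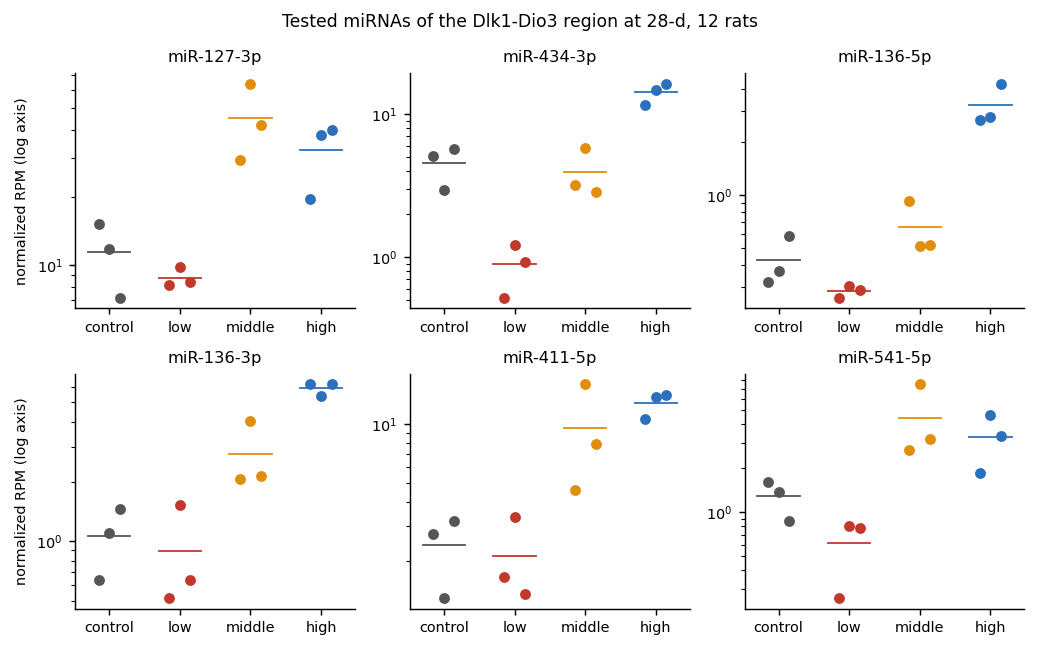
Normalized RPM (log axes) of the 6 tested miRNAs of the Dlk1-Dio3 region in the 12 rats of 28-d, each point 1 rat and each line a group mean, for control, low, middle and high dose. The 3 low dose rats have the lowest mean in every panel, with miR-434-3p at 0.887 against 4.58 in the controls. Only miR-434-3p was a DEM against the controls.

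Outside that region, the middle dose rats were above the low dose rats in miR-141-3p (log2 difference 1.04, SE 0.17, edgeR adjusted p = 0.00798), which was at 131 ± 10.3 normalized RPM at middle dose, 63.7 ± 11.97 at low dose and 118 ± 15.4 in the controls, and in miR-191a-5p (0.96, SE 0.17, edgeR adjusted p = 0.00957). miR-802-3p was the 1 miRNA lower at middle dose (-0.73, SE 0.18, edgeR adjusted p = 0.0385). Of the DEMs of low dose 28-d, 3 differed at middle dose, miR-141-3p, miR-434-3p and miR-6329, the last at 140 ± 39.01 at middle against 66.7 ± 14.0 at low dose (1.07, SE 0.22, edgeR adjusted p = 0.0151). At high dose 5 of them differed, miR-434-3p, miR-3585-5p (1.07, SE 0.17, edgeR adjusted p = 0.00337), miR-201-5p (1.30), miR-874-3p (0.84) and miR-10a-5p (0.50, SE 0.13, edgeR adjusted p = 0.0494), each lower at low dose. With TMM miR-201-5p (1.14), miR-874-3p (0.66) and miR-10a-5p (0.32) did not pass at high dose. With 1 rat left out, miR-6329 did not pass at middle dose without low dose rat 28 or 30 or middle dose rat 39, and miR-802-3p did not without low dose rat 28 or any 1 middle dose rat. At high dose miR-201-5p, miR-874-3p and miR-10a-5p were each lost in 4 of 6 such cases, low dose rat 30 among them. For miR-34a-5p the differences were 1.01 at middle dose (SE 0.43, edgeR adjusted p = 0.138) and -1.09 at high dose (SE 0.43, edgeR adjusted p = 0.135), neither past the threshold. Without rat 29, 25 miRNAs differed at middle dose (24 higher and 1 lower than at low dose) and 51 at high dose (37 higher and 14 lower), and miR-34a-5p differed at middle dose (1.66, SE 0.37, edgeR adjusted p = 0.0134).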

How the data were processed

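Small RNA of rat liver was sequenced in 48 libraries, and the authors deposited raw counts. Per the methods, adaptors were trimmed, reads of 18 to 25 bases were kept and miRDeep2 assigned them to miRBase release 21; rn5 and FastQC are named in the submitters' processing notes. The authors applied no normalization to the deposited counts and pooled no replicates. A mature miRNA listed with several precursors (71) was represented by the one with the most reads.

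Samples were grouped by the labels' dose and time, with their running number as the replicate. Replicates are separate rats. edgeR 4.0.16 (R 4.3.3) was fitted to the 6 libraries of 28-d with upper quartile scaling, followed by its quasi-likelihood F-test, with the study's thresholds (p below 0.05, fold change above 1.5) and Benjamini-Hochberg adjustment over all 301 tested miRNAs. Normalized RPM are RPM after that scaling, with no pseudocount. Differences between doses used the 12 libraries of 28-d, and between durations the 12 libraries of both times. With 3 rats against 3 an exact permutation test of 1 miRNA cannot go below p = 0.1 and was not used. In the shallowest library, control rat 18, 3 reads are 0.391 RPM (counting error only). The scripts were tested on simulated data. DESeq2 1.42.0, limma 3.58.1, Python 3.11.15, pandas 2.3.3, numpy 2.4.6 and matplotlib 3.10.9 were also used.

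The miRNAs and lists were chosen with earlier results of these data known. Named are all DEMs, the miRNAs the study names, list members that are DEMs (or the most abundant members of a list without one), the 10 most abundant and, for differences, the 5 with the smallest p in each direction, plus miRNAs said to be named after their values were seen. Neighbours lie within 10000 bases in RefSeq (GRCr8), whose coordinates are not printed because the build differs. The alternatives were other scalings, filters, tests, sample sets and precursor rows, and each rat left out. TMM without rat 29 and, for 3-d, the omission of its shallow control library were chosen after seeing the data.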

Additional observations from a re-analysis of the deposited data

Results flagged for a closer look

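For 2 miRNAs the effect of low dose TAA at 28-d differed from that at 14-d in a direct test. The log2 difference (28-d minus 14-d) was -3.45 for miR-434-3p (SE 0.58, edgeR adjusted p = 0.0153) and -1.77 for miR-127-3p (SE 0.36, edgeR adjusted p = 0.0442). The counts behind them were 25 to 59 reads of miR-434-3p in the 14-d controls and 6 to 13 in the low dose rats of 28-d. miR-434-3p passed with both other scalings tried, and miR-127-3p did not pass with TMM or with library size alone. With each of the 12 rats left out in turn, the call of miR-434-3p was lost in 5 cases (edgeR adjusted p = 0.0507 to 0.0701) and that of miR-127-3p in 10 (edgeR adjusted p = 0.0549 to 0.186).

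Among the 363 miRNAs that were too rare to be tested, 1 had more than 3 reads in every low dose rat of 28-d and at most 3 in every control. miR-3075 had 0, 1 and 3 reads in the controls and 4, 11 and 9 in the low dose rats. Relative to depth the summed reads were 5.91-fold higher in the low dose rats (exact 95% interval 2.03 to 23.4, counting error only). The interval takes in neither the spread between rats nor the choice of this miRNA among the 363 by these same reads. It therefore gives no support for a difference between the groups, which was not tested.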

How the results depend on the processing

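Of 656 values of the 37 DEMs under the alternatives, 462 kept the call, 194 lost it and none changed sign. miR-34a-5p, miR-434-3p, miR-6329 and miR-201-5p were called under every alternative run and without each rat. Other DEMs also depended on rats other than rat 29. miR-93-5p and miR-107-3p were lost without control rat 17 or 18 or low dose rat 30. Likewise miR-582-3p was lost without control rat 16 or 18 or low dose rat 30, and miR-31a-5p without control rat 17 or 18. The call of let-7e-3p held in 1 of 11 alternatives and in 1 of 6 cases with a rat left out. For the DEMs, no filter gave 56 (30 higher, 8 past an adjusted p of 0.05), and leaving out each rat gave 23 to 49 (higher 5 to 20, lower 13 to 29, adjusted 0 to 14), with 23 without low dose rat 30 and 5 higher without control rat 17. DESeq2's size factors gave 17 higher and 12 lower, library size alone 22 and 7, DESeq2's Wald test 22 and 12, and all 12 controls pooled 18 and 16, and TMM gave 12 lower. Past an adjusted p of 0.05 were 4 with a filter of 5 RPM in each of the 6 libraries, 7 by edgeR's exact test, 5 by the Wald test, 21 with the 12 libraries of 28-d, 11 with all 48, 3 with pooled controls and 2 with precursors summed. TMM without rat 29, chosen after seeing the data, gave 29 higher and 11 past the adjusted threshold.

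For the 28-d minus 14-d difference, TMM, library size alone and all 48 libraries gave 1 each, no filter 6, TMM without rat 29 43, and leaving out each rat 0 to 70, with 0 without low dose rat 28 or 30, control rat 16, or 14-d control rat 13 or 14. For middle minus low dose, TMM and library size alone gave 23 each, no filter 48, TMM without rat 29 26, and leaving out each rat 4 to 25, with 4 without low dose rat 28 and 5 without middle dose rat 39. For high minus low dose, TMM gave 6, library size alone and all 48 libraries 8 each, no filter 24, TMM without rat 29 33, and leaving out each rat 6 to 51, with 6 without low dose rat 30 or high dose rat 20 or 21. The highest count in each range was without rat 29. The causes were not tested, and with few reads, as for miR-293-5p and miR-136-5p, depth limits the precision. No paired analysis was possible because the running numbers of the rats are not shared between groups.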
